A study of Mus musculus with 4 samples.

Results

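The strongly open promoters of protein-coding genes were studied in melb-a cells. This is a mouse line of melanoblasts, the immature cells of the embryo that give rise to pigment cells. They are the peaks that the deposited annotation places at the transcription start site (TSS) of a protein-coding gene and whose mean in the control libraries was 10 CPM or more. CPM scale the tags of a peak by the tags in all peaks of its library. The rule selected 5892 of 70436 peaks, out of 7050 protein-coding promoter peaks, and the members belong to 5760 genes. The members were thus chosen by their measured control level, which is given below as a description only, and it is also the denominator of every fold change.

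The assay was ATAC-seq, which reads open chromatin from the sites where a loaded transposase can cut and tag DNA. The Hira group held 2 libraries of wild-type melb-a cells infected with lentivirus coding for a short hairpin RNA against Hira, shHIRA I (hairpin I) and shHIRA II (hairpin II). The control group held 2 libraries of the same cells with a hairpin against luciferase (control 1) or a scrambled hairpin (control 2). All cells were infected with polybrene, selected with puromycin and grown with SCF and Fgf2, and the design asks how accessibility differs after Hira knockdown. Each hairpin gave 1 library, so the spread behind the p-values mixes hairpins, cultures and technical steps and may be technical. In bulk libraries, fewer cells with an open promoter and less signal per cell cannot be told apart.

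HIRA is a histone chaperone that places H3.3, a variant of histone H3, into chromatin outside of DNA replication, at promoters and enhancers among other sites. Most promoters of broadly expressed genes lie in CpG islands, stretches of DNA that keep their CG dinucleotides because they are unmethylated, and stay free of nucleosomes in most cell types. Promoters poor in CG are more often those of genes used by few cell types.

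The deposited table gave 14718721 and 8910983 tags in peaks for hairpins I and II, against 20716859.5 and 15804532 for controls 1 and 2. A member held a median of 534.5 and 335 tags under hairpins I and II, against 795.75 and 605 in the controls. Across members the Hira libraries differed from each other by a chi-square per peak of 3.36, against 0.991 for the control libraries. The control libraries thus agreed within counting noise, and means and n treat them as 1 sample. The statistical fit still kept them as separate libraries, and its calls depend on this, as given below. Of the marker genes of the labelled cell type, 4 of 8 had a promoter peak (Mitf, Sox10, Pax3 and Dct), with summed levels of 163.8 and 174.2 CPM under hairpins I and II, against 181.7 and 174.9 CPM in the controls. Kit, Tyrp1, Ednrb and Mcam had no peak called a promoter. No promoter peak was assigned to any of 6 keratinocyte markers. Promoter peaks of fibroblast (2 of 6), endothelial (2 of 5) and immune markers (1 of 6) were all under the threshold of 10 CPM. Summed fibroblast marker levels were 25.8 and 13 CPM under hairpins I and II, against 11.3 and 8.48 CPM in the controls, and endothelial ones 19.4 and 9.81 CPM against 7.61 and 7.10 CPM. The part of other cell types in the results was not tested.

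Sumo3, which encodes a ubiquitin-like modifier, and Radil, which encodes an effector of the GTPase Rap1 in cell adhesion, each have a pair of strongly open promoters that differ in CpG content and in their response. They are shown as the extreme cases, chosen after their values were seen. The 250 bases before each RefSeq start site (build GRCm38.p6, the mouse build that UCSC calls mm10) are shown 5′ to 3′ on the gene's strand, with every CG in capitals. The first Sumo3 sequence (chr10:77605847-77606096, plus strand) and the first Radil sequence (chr5:142551099-142551348, minus strand) hold 20 CG each, and the test called neither of these promoters. The second of each (chr10:77613459-77613708 and chr5:142545028-142545277) hold 2 CG each, and both promoters were called, Sumo3 lower and Radil higher.
Sumo3 CpG-rich promoter: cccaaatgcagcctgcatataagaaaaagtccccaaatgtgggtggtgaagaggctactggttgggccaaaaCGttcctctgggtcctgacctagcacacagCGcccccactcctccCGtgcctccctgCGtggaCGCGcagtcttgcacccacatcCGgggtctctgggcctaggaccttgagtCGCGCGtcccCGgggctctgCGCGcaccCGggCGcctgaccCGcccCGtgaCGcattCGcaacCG
Sumo3 CpG-poor promoter: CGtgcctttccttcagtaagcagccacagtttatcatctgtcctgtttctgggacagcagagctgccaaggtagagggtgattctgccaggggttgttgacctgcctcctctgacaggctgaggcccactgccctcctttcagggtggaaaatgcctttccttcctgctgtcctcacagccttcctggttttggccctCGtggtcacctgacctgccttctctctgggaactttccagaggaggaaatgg
Radil CpG-rich promoter: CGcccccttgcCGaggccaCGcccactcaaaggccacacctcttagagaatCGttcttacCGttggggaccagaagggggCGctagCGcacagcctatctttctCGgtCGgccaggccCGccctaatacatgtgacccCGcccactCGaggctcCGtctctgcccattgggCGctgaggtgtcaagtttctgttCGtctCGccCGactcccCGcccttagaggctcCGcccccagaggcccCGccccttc
Radil CpG-poor promoter: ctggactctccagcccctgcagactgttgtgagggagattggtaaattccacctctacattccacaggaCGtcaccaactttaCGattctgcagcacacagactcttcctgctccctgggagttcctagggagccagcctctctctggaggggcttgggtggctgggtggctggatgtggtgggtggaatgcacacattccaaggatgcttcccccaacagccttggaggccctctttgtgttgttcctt

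Further sequences belong to called promoters described below, chosen for the motifs they hold. Their capitals mark short motifs searched on both strands. Cald1 (chr6:34709194-34709443, plus strand) has a TGANTCA box, the motif of AP-1 factors. Trpm1 (chr7:64185209-64185458, plus strand) and the downstream promoter of Rab27a (chr9:73063898-73064147, plus strand) each have a CACGTG box, and Dct (chr14:118052247-118052496, minus strand) has 2 CATGTG boxes. Both are E-box forms that MITF, the lineage's pigment regulator, is known to bind. Ifit3b (chr19:34607707-34607956, plus strand) has 2 matches to the core of the interferon-stimulated response element, GAAA and GAAA with any 2 bases between them.
Cald1 internal promoter: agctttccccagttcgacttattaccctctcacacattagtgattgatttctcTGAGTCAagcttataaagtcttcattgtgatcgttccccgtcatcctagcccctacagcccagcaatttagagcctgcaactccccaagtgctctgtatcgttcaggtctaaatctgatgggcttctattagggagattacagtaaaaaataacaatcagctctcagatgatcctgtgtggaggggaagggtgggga
Trpm1 promoter: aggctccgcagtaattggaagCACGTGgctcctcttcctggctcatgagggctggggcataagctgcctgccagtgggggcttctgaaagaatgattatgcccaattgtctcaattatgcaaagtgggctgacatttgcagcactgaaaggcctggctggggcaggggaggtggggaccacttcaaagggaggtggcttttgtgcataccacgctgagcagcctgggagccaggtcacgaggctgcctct
Rab27a downstream promoter: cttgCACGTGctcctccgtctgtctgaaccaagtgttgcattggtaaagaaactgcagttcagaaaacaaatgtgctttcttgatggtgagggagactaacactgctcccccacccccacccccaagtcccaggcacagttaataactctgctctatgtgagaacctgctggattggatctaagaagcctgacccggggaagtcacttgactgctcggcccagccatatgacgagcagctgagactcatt
Dct promoter: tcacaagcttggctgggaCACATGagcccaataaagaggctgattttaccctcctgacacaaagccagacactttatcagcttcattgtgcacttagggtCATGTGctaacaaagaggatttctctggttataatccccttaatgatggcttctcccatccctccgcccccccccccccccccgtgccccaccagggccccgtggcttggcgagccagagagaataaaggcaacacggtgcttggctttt
Ifit3b promoter: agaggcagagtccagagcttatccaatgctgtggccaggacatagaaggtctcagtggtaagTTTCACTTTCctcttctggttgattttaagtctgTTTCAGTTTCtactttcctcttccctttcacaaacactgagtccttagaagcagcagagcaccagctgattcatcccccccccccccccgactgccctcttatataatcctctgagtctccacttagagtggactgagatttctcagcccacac
Over all RefSeq windows of 300 bases, TGANTCA occurs in 7.81%, CACGTG in 7.15%, CATGTG in 14.2% and the interferon element core in 3.44%. A match describes the letters and is not evidence that a factor is bound there.

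As a group, the members lay close to the TSS and were rich in CG. Their control level ran from 10.0 to 275 CPM with a median of 38.4 CPM, and 90% of them lie between 13.1 and 103.9 CPM. Peak width had a median of 1078 bp, and 81.1% of peak centres lay within 250 bp of the TSS. A RefSeq promoter window (250 bases before to 50 after a start) overlapped 4762 members (80.8%) by at least 150 bases. The median CpG observed-over-expected ratio of these windows was 0.82, and 6.49% of them were under 0.4, against 0.38 and 51.4% over all 32851 RefSeq windows. The GGGCGG box of SP and KLF factors occurred in 72.1% of member windows against 35.7% of all windows, and the box of NRF1, GCGC and TGCGC with any base between them, in 12.5% against 4.60%. The TATAAA box was found in 5.00% of member windows against 13.6% of all windows. At 1071 members (18.2%) a start of another gene on the other strand lay inside the peak.

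By tags per peak, not divided by peak length, the 5 most accessible members in the controls were assigned to Cited2, Usp5, Sp1, Bclaf1 and Srgap2. Cited2, a transcriptional co-regulator of CBP/p300, had 312 and 334 CPM under hairpins I and II, against 275 and 271 CPM in the controls. Sp1, a zinc finger factor that binds the GGGCGG box, had 198 and 232 CPM under the hairpins, against 231 and 233 CPM in the controls. At the other end, the members just inside the threshold were Zfyve28, Majin (10.02 CPM) and Shroom2 (10.04 CPM) by mean control CPM. The promoter peaks just outside it were a second peak of B3galt5 (9.997 CPM), Slc6a8 (9.986 CPM) and H2-Ab1 (9.975 CPM).

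The promoter of Hira itself had 62.8 and 73.3 CPM under hairpins I and II, against 72.5 and 72.2 CPM in the controls. The log2 fold change was −0.09 ± 0.09 (SE) with an adjusted p of 0.49 in edgeR's quasi-likelihood test, and its direction turns without hairpin I. Since short hairpins target RNA, open chromatin at this promoter is no measure of the knockdown. The promoters of its complex partners Ubn1, Ubn2, Cabin1 and Asf1a had log2 fold changes between −0.12 and −0.02. In the list of histone chaperone and H3.3 genes 0 of 17 promoters passed the test, with a median of −0.07. Among all members 5.01% passed, and among all peaks 25.3%. H3f3a, which encodes H3.3, had the lowest p of the chaperone and H3.3 list. It had 70.8 and 69.5 CPM under the hairpins against 60.5 and 62.3 CPM in the controls (adjusted p = 0.083). The newer quasi-likelihood estimate, the likelihood ratio test and the other fits are compared for all members below.

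Strongly open promoters changed at a smaller share than the rest of the accessible genome, in both directions. With edgeR's quasi-likelihood test on the 4 libraries and p-values adjusted over all peaks, 182 members were higher and 113 lower in Hira shRNA at an adjusted p under 0.05. Together these are 5.01% of members, where 25.3% of all 70429 tested peaks passed (14.4% higher and 11% lower). Of the 1158 protein-coding promoter peaks under 10 CPM, 126 were higher and 33 lower (13.7%). The SD of the log2 fold change over peaks was 0.20 among members, 0.72 among the weaker promoters and 0.93 over all peaks. Their medians were −0.04, 0.18 and 0.0019.

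The smaller share held at each control level. Of the 19696 other peaks at 10 CPM or more, 24.9% passed, with an SD of 0.58. Between 10 and 20 CPM 6.14% of members passed, against 27.4% of other peaks. Between 20 and 40 CPM the shares were 4.30% of members and 25.5% of other peaks. Between 40 and 80 CPM they were 5.51% of members and 18.3% of other peaks. From 80 CPM upward they were 3.98% of 704 members and 14.3% of 588 other peaks. These are counts from the per-peak test, and the difference between the groups of peaks was not tested.

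**Figure D1:**
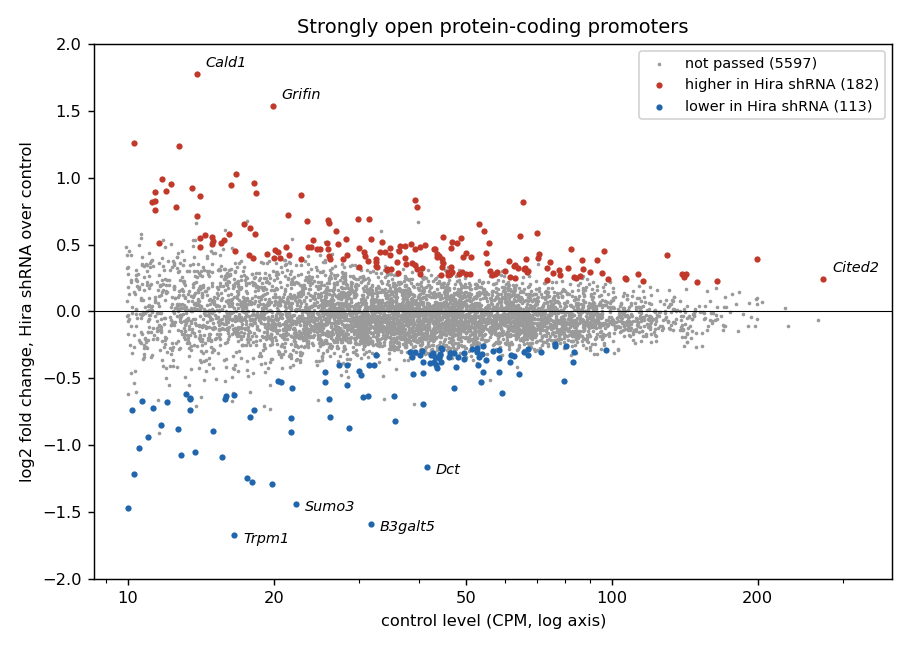
Log2 fold change of Hira shRNA over control (y axis) against control CPM (x axis, log) for the 5892 strongly open protein-coding promoters, 1 point per promoter. Red points are the 182 called higher and blue points the 113 called lower, and most points lie near 0, with the widest spread at the lowest levels.

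In size, 86.8% of members lay within 1.2-fold of the control and 18 went beyond 2-fold. Both hairpins put 26 members at least 1.5-fold over the control, where 13.8% of all peaks met that rule, and 31 members at least 1.5-fold under it, where 12.4% of all peaks did. Both Hira libraries lay above both controls at 1340 members (22.7%), where 34.5% of all peaks did, and below both at 1959 members (33.2%), where 34.3% of all peaks did. Members held 25.6% and 26.8% of tags in peaks under hairpins I and II, against 26.9% and 27.1% in the controls. The mean difference was −0.79 percentage points, and with 2 against 2 libraries no exact test of this share can reach a p under 0.05.

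The log2 ratios of hairpin I spread more widely than those of hairpin II. The hairpin I log2 ratio to the summed controls had a median of −0.08 and an SD of 0.25 over members, and that of hairpin II 0.00 and 0.19. Hairpin I lay farther from the control at 64.2% of members and at 66.8% of all peaks. The hairpins disagreed most at Car6, Ephb6 and Csad. At Car6, a secreted carbonic anhydrase, hairpins I and II gave 13.1 and 38.0 CPM, against 30.6 and 32.4 CPM in the controls. At Ephb6, an ephrin receptor, they gave 30.5 and 12.3 CPM, against 14.1 and 13.5 CPM. At Csad, an enzyme of taurine synthesis, they gave 13.5 and 30.7 CPM, against 32.8 and 35.1 CPM. In all 3 the hairpin II library lay near the controls, and none passed the test.

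**Figure D2:**
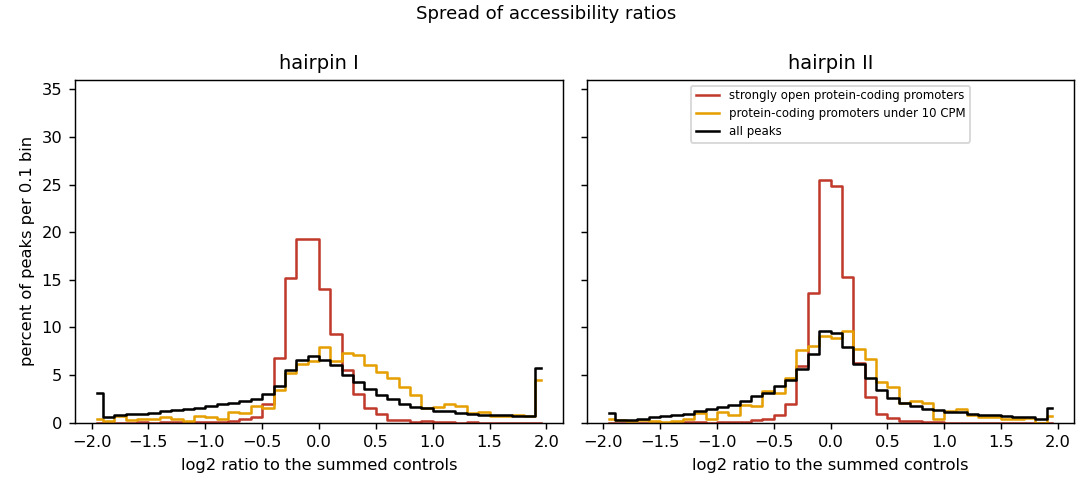
Share of peaks (y axis, percent per bin of 0.1) by log2 ratio to the summed controls (x axis), with hairpin I at left and hairpin II at right, for members, weaker protein-coding promoters and all peaks, with values beyond 2 gathered in the end bins. The members form the narrowest curve under both hairpins, with SDs of 0.25 and 0.19.

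The counts of members depended on how the control pair and the scaling entered. With the controls summed to 1 sample the same test called 0 members, where 0% of all peaks passed. Its smallest adjusted p among members was 0.070, and 132 members had an unadjusted p under 0.05. On the summed controls edgeR's newer quasi-likelihood estimate called 29 members higher and 14 lower, where 8.46% and 5.69% of all peaks passed, and its likelihood ratio test called 16 and 5, where 7.51% and 4.62% did. DESeq2 called 57 higher and 34 lower, where 10.7% and 7.02% of all peaks passed. Leaving out control 1 or control 2 gave 0 calls among members, where 0% of all peaks passed, with 130 and 137 members at an unadjusted p under 0.05. Leaving out hairpin I gave 728 higher and 431 lower, where 20.9% and 18.7% of all peaks passed. Leaving out hairpin II gave 852 and 2030, where 30.9% and 30.1% of all peaks passed. In both of these fits only the controls are repeated, and the lone Hira library is assumed to vary like them. Of the 68 called promoters checked singly, which hold those given below, 0 kept their call with the controls summed, 24 with the newer estimate and 15 with the likelihood ratio test. Of the called members 61.7% were higher under TMM scaling. The split was 160 higher and 198 lower under total tags (13.7% and 11.9% of all peaks) and 205 and 248 under cyclic loess (15.3% and 11.1%). Under library sizes recovered from the authors' fold changes it was 9 and 93, or 8.82% higher, where 11.1% and 19% of all peaks passed. That scaling moved the median of all peaks to −0.26 and that of members to −0.29, so every direction given here is relative to the majority of peaks. In the authors' deposited table, which calls 8.48% of all peaks higher and 11.8% lower, 2 members are higher, Cald1 (log2 fold change 1.49) and Grifin (1.28), and 16 lower, led by Trpm1 (−1.98), B3galt5 (−1.76), Tnfaip8 (−1.72) and Sumo3 (−1.67).

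Among rises, the internal promoter of Cald1 was the largest. Cald1 encodes caldesmon, which binds actin and myosin and restrains contraction. This peak (chromosome 6, 34708369 to 34709579) had 53.9 and 39.9 CPM under hairpins I and II, against 14.4 and 13.2 CPM in the controls. Both Hira libraries lay far above both controls, with a log2 fold change of 1.77 ± 0.17 (SE) and an adjusted p of 0.013 (0.025 with the controls as 1 sample and the newer estimate). The peak assigned to Grifin, a galectin-like lens protein, lay upstream of its TSS and had 60.8 and 54.7 CPM under the hairpins, against 19.2 and 20.8 CPM in the controls (log2 fold change 1.53 ± 0.10, adjusted p = 0.013). Lrtm2, which encodes a leucine-rich repeat membrane protein, had 35.4 and 32.1 CPM under the hairpins against 17.7 and 15.4 CPM (1.03 ± 0.12, adjusted p = 0.013). That the Hira and control values do not overlap at these genes was a condition for naming them.

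The other members among the 10 largest rises were assigned to Tmem40, Radil, Itih1, Mylk3, Fam57b, Ltbp1 and Tnk2, with log2 fold changes from 1.26 to 0.92 and adjusted p-values from 0.013 to 0.021. Itih1 encodes a heavy chain of the inter-alpha-trypsin inhibitor, which links to hyaluronan, and Mylk3 a kinase of myosin light chain known from heart muscle. Ltbp1, whose product tethers latent TGF-β to the matrix, had 36.1 and 26.4 CPM under the hairpins, against 16.2 and 16.4 CPM in the controls. The other strongly open promoter of Ltbp1 had a log2 fold change of 0.36 and was not called. With the controls as 1 sample, adjusted p-values of these 10 ranged from 0.070 to 0.11 in the same test and from 0.025 to 0.044 with the newer estimate. By the likelihood ratio test Fam57b (0.077) and Tnk2 (0.072) missed the threshold.

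Among falls, Trpm1 went lowest relative to control. It encodes melastatin, a cation channel of melanocytes and retinal bipolar cells. Its promoter had 6.08 and 4.16 CPM under hairpins I and II, against 15.8 and 17.6 CPM in the controls, which is −1.68 ± 0.22 (SE) as a log2 fold change, with an adjusted p of 0.013. B3galt5, a galactosyltransferase of glycan chains, had 8.05 and 13.6 CPM under the hairpins, against 31.4 and 32.1 CPM (−1.59 ± 0.24, adjusted p = 0.014). Tnfaip8, a regulator of cell death, had 3.36 and 3.94 CPM under the hairpins at its second promoter, against 9.93 and 10.1 CPM (−1.47 ± 0.20, adjusted p = 0.013). At B3galt5 and Tnfaip8 hairpin I gave the lower of the Hira values, and at Trpm1 hairpin II did.

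The remaining members among the 10 largest falls were assigned to Sumo3, Gjb1, Zmiz2, Ip6k3, Dct, Hpgds and Dido1, with log2 fold changes from −1.44 to −1.07 and adjusted p-values from 0.013 to 0.041. Gjb1 encodes the gap junction protein connexin 32, Ip6k3 a kinase of inositol phosphates and Hpgds a synthase of prostaglandin D2. At Gjb1 the values were 5.67 and 9.58 CPM under the hairpins, against 17.4 and 18.8 CPM in the controls. With the controls as 1 sample, adjusted p-values of these 10 ranged from 0.070 to 0.15 in the same test and from 0.025 to 0.054 with the newer estimate, where Dido1 alone missed the threshold. By the likelihood ratio test Gjb1 (0.056), Zmiz2 (0.095), Ip6k3 (0.077), Hpgds (0.096) and Dido1 (0.10) missed it.

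**Figure D3:**
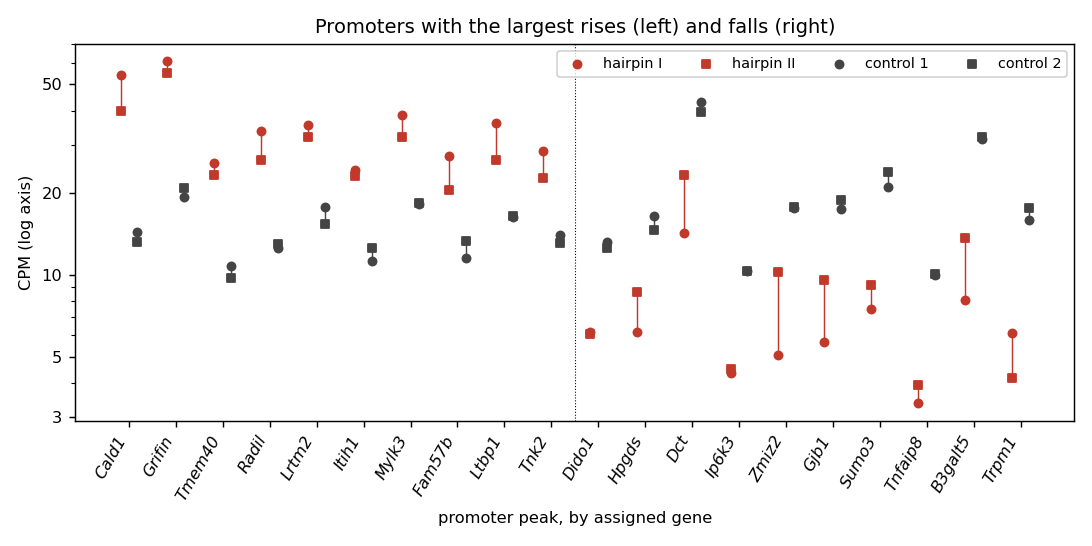
CPM (y axis, log) of the 10 promoters with the largest rises and the 10 with the largest falls in Hira shRNA, by assigned gene (x axis), with hairpins I and II in red and controls 1 and 2 in grey. Both hairpins lie beyond the controls at every gene, which the choice of these genes required.

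Promoters poor in CG changed at a larger share than CG-rich ones. Among 309 members with a CpG ratio under 0.4, 37 were higher and 27 lower (20.7%). Among 4453 members with a ratio of 0.4 or more, 108 were higher and 56 lower (3.68%). Over all tested peaks 25.3% passed, and 24.9% of the other peaks at 10 CPM or more. The SD of the log2 fold change was 0.42 for the CpG-poor and 0.17 for the other members, and their medians were −0.01 and −0.04. Control levels differed as well, with medians of 23.4 CPM for the CpG-poor and 40.4 CPM for the other members. At 40 CPM or more, 18 of 66 CpG-poor members passed (27.3%), against 98 of 2247 others (4.36%). Under 40 CPM, 46 of 243 passed (18.9%), against 66 of 2206 (2.99%).

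**Figure D4:**
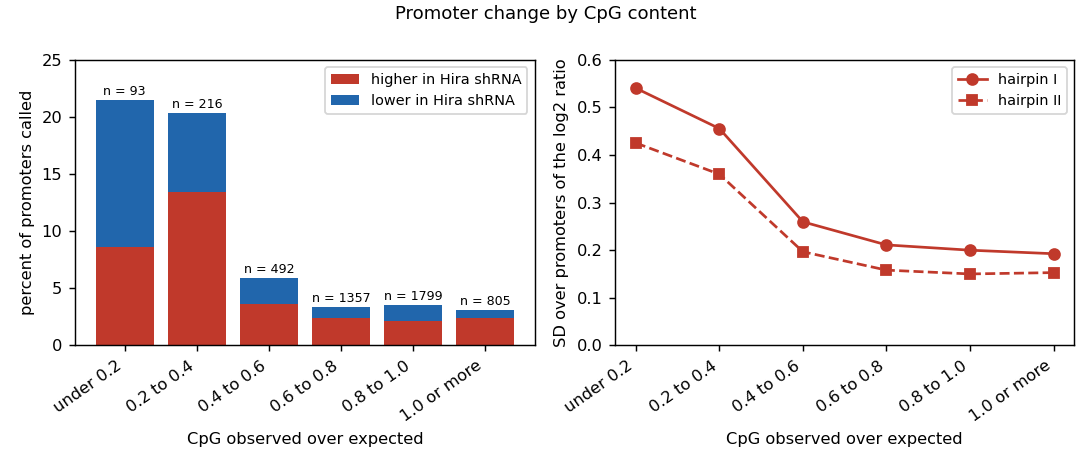
Left, share of members called higher (red) or lower (blue) in Hira shRNA by CpG observed-over-expected ratio (x axis), with the number of members above each bar. Right, SD over members of the log2 ratio to the controls for either hairpin, which is 0.54 and 0.43 under hairpins I and II at ratios under 0.2 and 0.19 and 0.15 at ratios of 1.0 or more.

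The CpG-poor members also differed in short motifs. TGANTCA occurred in 13.6% of CpG-poor windows and 3.32% of the others, TATAAA in 10.4% and 4.63%, the GGAATG box of TEAD factors in 17.5% and 10.4%, and the ACAATG box of SOX factors in 15.2% and 5.64%. GGGCGG went the other way, with 27.2% of CpG-poor windows and 75.2% of the others. This box itself holds a CG, so a lower share in CpG-poor windows was built into the split. Median GC content was 53.7% in the CpG-poor windows and 63.7% in the others, and the motif shares were not adjusted for it. Motif and CpG shares of the called members are not given, since under 80% of either called set had a window. Shares also differed with position. Of the 296 members centred at −500 bp or farther upstream of the TSS 10.5% passed, against 3.14% of the 2358 centred downstream of it. Among members with a second gene's start on the other strand 2.71% passed, against 5.52% of the others. These differences between classes of members were not tested.

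Where a gene has several strongly open promoters, they can be compared within a locus, where library scaling cancels. Among 122 such genes (254 peaks), 94 had no called promoter, 26 had some and 2 had all of theirs called. The median gap in log2 fold change between promoters of a gene was 0.22, and it was 1 or more at 6 genes, Sumo3, Radil, Tnfaip8, Cald1, Tmem40 and Tnk2. Of the 79 genes with a window at both ends of the pair (64.8%), 32 had exactly 1 CpG-poor promoter, and the poor one moved farther in 23 of them. The gap was 1 or more in 2 of these, Sumo3 and Radil. With under 80% of genes covered these counts cannot stand for all 122, and the difference between promoters of a gene was not tested.

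At Sumo3 the CpG-rich promoter had 138.9 and 165 CPM under hairpins I and II, against 160 and 163 CPM in the controls (log2 fold change −0.09, adjusted p = 0.51). The CpG-poor promoter shown above, 7.36 kb away, had 7.48 and 9.18 CPM under the hairpins, against 21.01 and 23.7 CPM in the controls (−1.44 ± 0.16, adjusted p = 0.013). The poor promoter thus stood at 5.38% and 5.56% of the rich one under the hairpins, against 13.1% and 14.6% in the controls. Radil went the other way. Its CpG-rich promoter had 41.0 and 41.9 CPM under the hairpins, against 43.0 and 44.9 CPM (−0.08, adjusted p = 0.47). Its CpG-poor promoter had 33.6 and 26.3 CPM under the hairpins, against 12.6 and 13 CPM (1.24 ± 0.15, adjusted p = 0.013). It stood at 82.1% and 62.7% of the rich one under the hairpins, against 29.2% and 29.0% in the controls.

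The other genes of this kind did not all pair a rich with a poor promoter. Cald1 has a CpG-poor promoter at each end of the pair (ratios 0.30 and 0.33), 110 kb apart, and the upstream one rose less, with 62.2 and 56.6 CPM under the hairpins against 44.2 and 41.8 CPM in the controls (0.47 ± 0.08, adjusted p = 0.018). At Tnk2, a Cdc42-associated tyrosine kinase, the promoter that rose had 28.4 and 22.6 CPM under the hairpins against 13.9 and 13.1 CPM (0.92 ± 0.15, adjusted p = 0.016), while the other had 21.5 and 20.02 CPM against 22.04 and 22.3 CPM. Kmt5a, which encodes the histone H4 lysine 20 monomethyltransferase, had 3 members, all called higher, with log2 fold changes of 0.26, 0.29 and 0.88.

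Few promoters of the cell's core machinery passed the test. The lists pooled here were ribosomes, translation, tRNA synthetases, splicing, RNA polymerase II, Mediator, nuclear pore, proteasome, chaperones and oxidative phosphorylation. Together 4 of their 299 promoters passed (1.34%), with a median of −0.07. Rpl27a, a ribosomal protein, had 47.7 and 51.8 CPM under hairpins I and II, against 65.1 and 59.7 CPM in the controls (−0.33 ± 0.08, adjusted p = 0.041). Eif3l, a subunit of translation initiation factor 3, had 28.6 and 30.7 CPM under the hairpins, against 40.9 and 40.5 CPM (−0.46 ± 0.09, adjusted p = 0.020). Vars, the valine tRNA synthetase, rose by 0.43 ± 0.07 (adjusted p = 0.016) and Nup205, a nuclear pore scaffold, by 0.40 ± 0.11 (adjusted p = 0.045). In 18 of the 39 lists no promoter passed, among them oxidative phosphorylation (0 of 43), spliceosome (0 of 30), mitosis (0 of 23) and the Wnt pathway (0 of 23). The HOX list, with only 1 promoter, is counted among the 18. The lowest p-values in such lists included Ndufs3, a subunit of respiratory complex I, at −0.40 ± 0.13 (adjusted p = 0.075) and the p53 target Gadd45g at 0.26 ± 0.07 (adjusted p = 0.0501). The lists overlap the choices of earlier work on these data and are given as counts. Shares to set beside each list count are 14.4% higher and 11% lower of all peaks, and 3.09% and 1.92% of members.

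**Figure D5:**
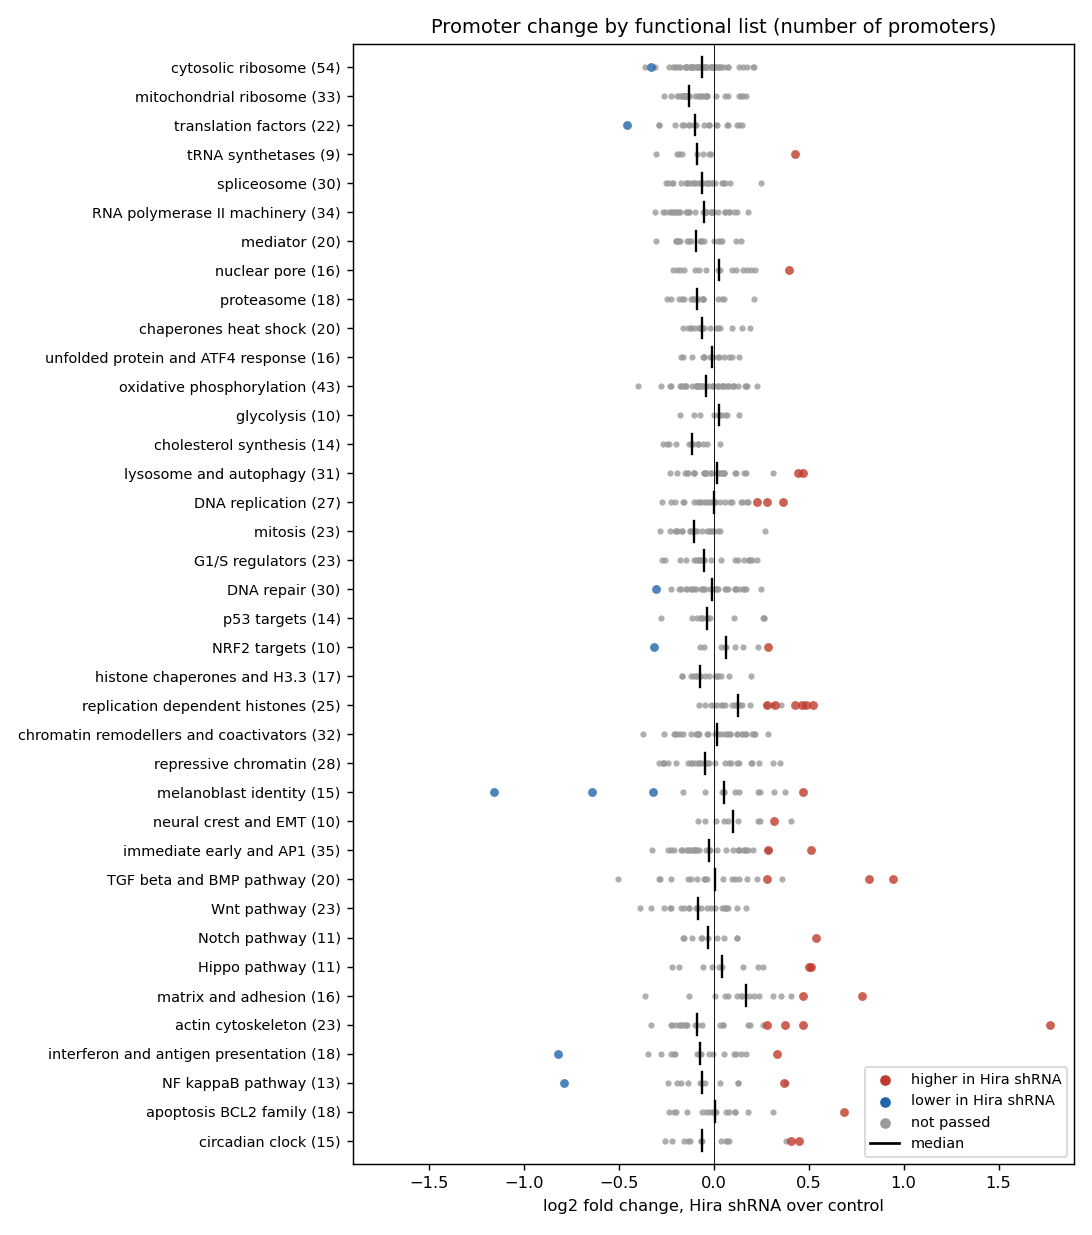
Log2 fold change of Hira shRNA over control (x axis) of each strongly open promoter, by functional list with the number of promoters in brackets (y axis). Red and blue points passed higher and lower, grey points did not pass, and the black tick is the list's median. Most core machinery lists hold only grey points near 0, and the melanoblast list spans −1.16 to 0.47.

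Of the melanoblast list, 1 of 15 promoters was higher and 3 were lower (median 0.05). Over all peaks 14.4% were higher and 11% lower, and over members 3.09% and 1.92%. Dct, the dopachrome tautomerase of eumelanin synthesis, had 14.2 and 23.3 CPM under hairpins I and II, against 42.8 and 39.5 CPM in the controls (−1.16 ± 0.22, adjusted p = 0.020). Slc45a2, a transporter of the melanosome membrane, had 41.6 and 44.6 CPM under the hairpins, against 55.1 and 52.2 CPM (−0.32 ± 0.08, adjusted p = 0.039). The Hira values lay below both controls at both genes, which work late in pigment formation. Rab27a, the GTPase that couples melanosomes to the actin motor, has a pair of members. Its downstream promoter, shown above, had 18.5 and 20.8 CPM under the hairpins, against 31.0 and 30.04 CPM (−0.64 ± 0.11, adjusted p = 0.017). Its upstream promoter had 19.1 and 17.3 CPM under the hairpins, against 18.8 and 16.4 CPM (0.05, adjusted p = 0.81). Erbb3, a neuregulin receptor of neural crest and early melanoblasts, had 34.0 and 35.6 CPM under the hairpins, against 23.6 and 26.7 CPM (0.47 ± 0.10, adjusted p = 0.028). With the controls as 1 sample and the newer estimate, Dct kept its call (adjusted p = 0.029), while downstream Rab27a (0.078), Erbb3 (0.14) and Slc45a2 (0.23) did not.

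Promoters of the lineage's transcription factors did not pass. Mitf, its master regulator, had 47.2 and 56.5 CPM under hairpins I and II, against 51.9 and 48.2 CPM in the controls (log2 fold change 0.04). Sox10, an upstream activator of Mitf, had 32.6 and 27.5 CPM under the hairpins, against 22.7 and 23.8 CPM (0.38 ± 0.12, adjusted p = 0.070). The Hira values lay above both controls at Sox10 and overlapped them at Mitf. Pax3, Snai2, Zeb2 and Tfap2a, further factors of the lineage, had log2 fold changes of 0.13, 0.05, 0.23 and −0.05. The receptors Met and Mc1r had 0.32 and −0.16, the survival gene Bcl2 0.11, and Mlph, the adaptor that binds Rab27a, 0.24.

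Several promoters of replication-dependent histone genes rose. Of 25, 6 were higher and 0 lower, where 14.4% and 11% of all peaks and 3.09% and 1.92% of members were. The median of these histone promoters was 0.13. Most of these genes lie in clusters of near-identical copies, so tags may be split between copies and their values are uncertain. Hist4h4, on chromosome 6, is not one of the Hist1 cluster genes. Hist4h4 had 113.2 and 113.1 CPM under hairpins I and II, against 83.3 and 80.7 CPM in the controls (0.47 ± 0.06, adjusted p = 0.013). The others were Hist1h2ai, Hist1h4j, Hist1h2bn, Hist1h2bc and Hist1h2bm, with log2 fold changes from 0.52 to 0.28. Of 27 DNA replication promoters 3 were higher and 0 lower (median 0.00). They were Cdt1, a licensing factor (0.23 ± 0.06, adjusted p = 0.040), Rrm2, a subunit of ribonucleotide reductase (0.28), and Pola2, a subunit of DNA polymerase alpha (0.36). With the authors' library sizes the histone list's median was −0.12 and that of DNA replication −0.25, above and close to the −0.29 of all members.

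Promoters of matrix, TGF-β and cytoskeletal genes included several rises and no falls. Of 20 TGF-β and BMP promoters 3 were higher and 0 lower, with a median of 0.0056 and log2 fold changes from −0.51 to 0.95. The higher ones included Ltbp1, given above, and Tgif1, a repressor of SMAD targets (0.28 ± 0.06, adjusted p = 0.025). Of 16 matrix and adhesion promoters 2 were higher (median 0.17), Loxl1, an elastin cross-linking oxidase (0.78 ± 0.18, adjusted p = 0.029), and Itgb8, an integrin that activates latent TGF-β (0.47 ± 0.09, adjusted p = 0.020). Fibroblast marker levels, given above, were higher under hairpin I in the same libraries, and their part was not tested. In the actin list 4 of 23 were higher (median −0.09), both Cald1 promoters, Actb, the cytoplasmic beta-actin (0.37 ± 0.06, adjusted p = 0.016), and the focal adhesion protein Zyx (0.28 ± 0.06, adjusted p = 0.024).

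In the Hippo list 2 of 11 were higher (median 0.04). Ccn2, a matricellular target of YAP, had 74.0 and 85.1 CPM under hairpins I and II, against 55.6 and 55.5 CPM in the controls (0.51 ± 0.09, adjusted p = 0.016). Ajuba, a LIM protein that binds LATS kinases, had 37.2 and 39.7 CPM under the hairpins, against 27.6 and 26.7 CPM (0.50 ± 0.09, adjusted p = 0.018). Ccn2 and Maff, a small MAF factor (0.29 ± 0.07, adjusted p = 0.030), were the rises among 35 immediate early and AP-1 promoters, with 0 falls and a median of −0.03. Single promoters rose in other signalling lists. Dll1, a Notch ligand, rose by 0.54 ± 0.09 (adjusted p = 0.017) among 11 Notch promoters. Bmf, a BH3-only activator of cell death, rose by 0.69 ± 0.10 (adjusted p = 0.013) among 18 promoters of its family. The other strongly open promoter of Bmf had a log2 fold change of 0.00023 and was not called. Nes, the intermediate filament of neural progenitors, rose by 0.32 ± 0.08 (adjusted p = 0.037) among 10 neural crest promoters.

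Further single calls were spread over the remaining lists. Gabarapl1, an autophagosome protein of the ATG8 family, rose by 0.47 ± 0.08 (adjusted p = 0.015) and Atp6v1h, a subunit of the proton pump of lysosomes, by 0.44 ± 0.10 (adjusted p = 0.032), 2 of 31 in the lysosome and autophagy list (median 0.02). Tef, a clock-controlled PAR bZIP factor, rose by 0.41 ± 0.07 (adjusted p = 0.018), and Nfil3, a bZIP repressor of the same sites, by 0.45 ± 0.09 (adjusted p = 0.022), the 2 rises among 15 clock promoters. The other strongly open promoter of Tef had 0.08 and was not called. Abcc1, an efflux pump for glutathione conjugates, had the 1 fall among 10 NRF2 target promoters (−0.31 ± 0.09, adjusted p = 0.0499), and Maff, given above, the 1 rise. Bard1, the partner of BRCA1 in DNA repair, fell by 0.31 on the log2 scale (SE 0.08, adjusted p = 0.044), the 1 call among 30 repair promoters.

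In the interferon and antigen presentation list 1 of 18 was higher and 1 lower (median −0.07). The fall was Mx1, an antiviral GTPase, with 17.7 and 22.9 CPM under hairpins I and II, against 36.3 and 34.6 CPM in the controls (−0.82 ± 0.14, adjusted p = 0.016). The rise was Ifit2, which binds viral RNA, with 55.2 and 62.3 CPM under the hairpins against 46.1 and 47.2 CPM (0.33 ± 0.09, adjusted p = 0.043). Traf1, a TNF receptor adaptor induced by NF-κB, had 9.04 and 11.8 CPM under the hairpins, against 18.3 and 17.3 CPM (−0.79 ± 0.18, adjusted p = 0.028), the 1 fall among 13 NF-κB promoters. The 1 rise in that list was Nfkbiz, a nuclear IκB protein (0.37 ± 0.10, adjusted p = 0.046). Outside the lists, Ifit3b, Xaf1, Ifi27, Rtp4 and Mx2 were also called lower, with log2 fold changes of −1.05, −0.66, −0.65, −0.65 and −0.52. They were picked after their values were seen, and related members that did not fall were not counted, so they describe no group. Ifit3b, a member of the family that binds viral RNA and the promoter with the pair of interferon element matches shown above, had 7.07 and 6.10 CPM under the hairpins, against 14.1 and 13.4 CPM (adjusted p = 0.015).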

How the data were processed

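A commercial ATAC-seq kit was used, per the labels' protocols. Listed without roles in the submitters' processing notes are edgeR 3.38.4, MACS2 2.2.9.1, cutadapt 2.3, Picard, Bowtie2 and the mm10 build. Duplicate removal, read shifting and handling of multi-mapped reads are not given in the sources used here. The authors deposited tags per peak as estimated counts in steps of 0.5, which were rounded before each fit. Per the file headers, their table also holds p-values, log2 fold changes and a likelihood ratio score. Each of the 4 tag columns was assigned to its sample through its name. The column names say knockout and the labels hairpin.

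All 70429 peaks left by filterByExpr were fitted with edgeR 4.0.16 (R 4.3.3) by the quasi-likelihood test, two-sided, with TMM factors and group as the only term, adjusted by Benjamini-Hochberg over all peaks, threshold 0.05. SE was computed as the size of the log2 fold change divided by the root of F. CPM in the text use TMM library sizes, except the selection rule. Ratios of single hairpins used a prior of 2 tags. Library size is tags in peaks, so reads that fall between peaks do not enter. The library sizes of the authors' fold changes were recovered by least squares on 46005 peaks.

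Members and the 39 gene lists (1726 genes, 802 with a member) were chosen with earlier results of these data known. Named members were the 10 largest rises and falls with non-overlapping groups (predicted genes left out), the 5 highest control levels, 3 on either side of the threshold, the lowest p in each list with at least 5 members (where none passed, only examples are given), the melanoblast and HIRA complex lists, and the 3 largest hairpin differences. Single calls in a list are named beside its count. Some genes are not reported here. Applying the newer edgeR estimate and the likelihood ratio test to the summed controls was added once the data had been seen. Other alternatives used DESeq2 1.42.0 and limma 3.58.1. Promoter windows are from RefSeq (GRCm38.p6). On simulated tags for Hira against control with a coefficient of variation of 0.15 over 70429 peaks, the fit found 40 of 100 peaks shifted by 1 (log2), 96 of 100 peaks shifted by 2 (log2) and made 6 false calls. All 4 simulated libraries varied equally. In the data the estimate of this coefficient was 0.010 between the controls, equal among members, weaker promoters and other peaks. The control pair differed only by counting noise, so 0.010 is the floor of the estimate and not a measured spread. Between the hairpins the coefficient was 0.078 among members and 0.25 among other peaks. The simulation therefore does not cover the unequal spread of the data. Figures were drawn with matplotlib 3.10.9.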

Additional observations from a re-analysis of the deposited data

How the results depend on the processing

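Counts of called members moved by over 1.5 times in these cases, given as higher and lower. With the controls summed they were 0 and 0, 29 and 14 with the newer estimate, and 16 and 5 with the likelihood ratio test. DESeq2 gave 57 and 34, and an adjusted p under 0.01 gave 0 and 0, since no adjusted p was below 0.0125. Lower calls were 198 under total tags, 248 under cyclic loess and 194 under limma-voom. The authors' scaling gave 9 higher and a median of −0.29. Over fits leaving out 1 library, higher calls ran from 0 to 852 and lower calls from 0 to 2030. The other settings stayed within 1.5 times, and the share of tags moved by less than the spread between hairpins in 3 of 3. Of the 68 called promoters checked singly, 65 passed under total tags, 66 under cyclic loess, 38 under DESeq2, 28 under the authors' scaling, 60 with the block and 0 with the controls summed (24 with the newer estimate, 15 with the likelihood ratio test). The 295 called members kept their sign in every fit run but the authors' scaling (284), with 291 tested on autosomes.

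Under the authors' scaling these log2 fold changes turned, Bcl2 to −0.16, Bclaf1 −0.22, Cdt1 −0.027, Cited2 −0.0088, Gadd45g −0.00089, H3f3a −0.064, Mitf −0.20, Mlph −0.0079, Pax3 −0.13, the upstream Rab27a promoter −0.22, Snai2 −0.21, Srgap2 −0.17 and Zeb2 −0.031. With 1 library left out, signs turned within these ranges, Bclaf1 −0.041 to 0.10, Car6 −1.26 to 0.28, Ephb6 −0.17 to 1.14, Hira −0.21 to 0.017, Mitf −0.092 to 0.17, the upstream Rab27a promoter −0.044 to 0.16, Sp1 −0.23 to 0.0028, Srgap2 −0.034 to 0.17, the CpG-rich Sumo3 promoter −0.22 to 0.034, Tfap2a −0.26 to 0.15 and Ubn2 −0.079 to 0.041. Among the 97 promoters recomputed singly, no other turned. List medians given as positive turned under the authors' scaling too, melanoblast to −0.20, matrix and adhesion −0.09, Hippo −0.20 and lysosome and autophagy −0.25. The TGF-β and BMP median turned to −0.26. The causes were not tested.

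With the replicate block (numbers 1 and 2 of each group paired) 150 members were higher and 95 lower, 140 and 72 of them shared with the fit without it. The deviations of equally numbered libraries correlated with 0.046 across members. The control pair differed only by counting noise (chi-square per peak 0.991), so this value cannot show whether equal numbers share a batch. The depth of hairpin II, the shallowest library, limits what each promoter can show.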

Other observations

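By chromosome, the median log2 fold change of members ran from −0.08 (X, 153 members) to −0.0014 (chromosome 6, 270 members). Over all peaks the medians were −0.10 on X, also the lowest, and 0.02 on chromosome 6. Members on X had medians of −0.15 and −0.03 for hairpins I and II.

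By peak width, the narrowest members (under 600 bp) had 9 higher and 17 lower of 411, with a median of −0.08. The widest (1500 bp or more) had 65 higher and 14 lower of 944, with a median of 0.03. The widest also had the higher control level, with a median of 60.2 CPM, against 16.97 CPM for the narrowest. The difference between these width classes was not tested.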
